A study of Mus musculus with 16 samples.

Results

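The 7 genes described here carry the core of the MHC class II pathway in the mouse: H2-Aa, H2-Ab1 and H2-Eb1, which encode chains of the classical class II molecules, Cd74, which encodes the invariant chain, H2-DMa and H2-DMb1, which encode the peptide exchange factor H2-DM, and Ciita, which encodes the class II transactivator. They were found by name, through the gene symbols of their Ensembl identifiers. The rule used no measured value, though the set was drawn up with earlier results of these data known. All 7 were found among the 55487 genes of the count table, and all 7 were among the 18275 genes that passed the filter on low counts.

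RNA was sequenced from the apex of 16 mouse hearts, 4 in each of 4 groups. Ctrl mice were wild type and KO mice lacked Cardinal (Gm12295), a long noncoding RNA gene that was deleted in the whole animal with CRISPR/Cas9. TAC hearts had been loaded by transverse aortic constriction, sham hearts had the operation with no ligation, and all hearts were taken 4 weeks after surgery. All animals were males, per the study's methods. The groups are named by genotype and operation (for example KO TAC), the age of the mice is not given in the labels, and nothing in the labels ties a Ctrl mouse to a KO mouse as littermates. Each library is 1 mouse, and whether libraries of a group share a cage, litter or day is not stated.

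The libraries held between 53169437 and 79404714 counts. Gm12295 was at 0.276 to 0.553 CPM (counts per 1000000 counts of the library after TMM scaling) in 7 of the KO libraries and at 2.69 to 8.03 CPM in the Ctrl libraries. The library labelled KO TAC 4 held 377 counts of Gm12295, or 4.55 CPM, a level of the Ctrl range that goes against its label. The calls of the 7 genes and the list counts were therefore repeated without it. The correlations, the ratio to Csf1r and most estimates of listed genes are given only with it. Ctrl TAC 2 agreed least with its group (mean Pearson r of log2 CPM with the other 3 libraries 0.981, against 0.984 to 0.990 for the other 15 libraries), and it was left out as a check too. The tissue was unsorted and rich in heart muscle RNA, with 7 cardiomyocyte markers at a sum of 37420 to 56350 CPM.

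Class II molecules present peptides from endosomes to CD4 T cells, and in tissue they are made mainly by macrophages, dendritic cells and B cells. The invariant chain escorts new class II dimers to endosomes, proteases trim it to a short peptide, and H2-DM exchanges that peptide for others. CIITA binds no DNA itself and acts through factors that occupy the X box and the Y box of class II promoters, while interferon gamma is its best known inducer and resident heart macrophages are among the class II expressing cells of the myocardium.

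Promoter windows of 300 bases around RefSeq gene starts (GRCm38.p6) were at hand for 4 of the 7 genes, H2-Aa, H2-Eb1, H2-DMa and H2-DMb1, and not for H2-Ab1, Cd74 and Ciita. An X box (CTNGNAAC, where N is any base) followed by a Y box (GATTGG) with 15 to 30 bases between them was sought on both strands. These letters were settled with the sequences in view, so the matches are a description. The pair stood in 28 of 32851 windows (0.0852%), while the X box letters alone stood in 13.2% and the Y box letters alone in 16.1%. H2-Aa, H2-Eb1, H2-DMb1 and a further class II gene, H2-Ob, held the pair on the coding strand. The stretches are printed because they show the arrangement these genes share, with the X box and then the Y box in capitals.
H2-Aa, chr17:34287847-34287927, minus strand: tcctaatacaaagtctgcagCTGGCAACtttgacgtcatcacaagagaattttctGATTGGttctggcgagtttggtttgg
H2-Eb1, chr17:34305753-34305832, plus strand: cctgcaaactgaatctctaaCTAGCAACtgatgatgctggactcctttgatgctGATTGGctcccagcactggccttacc
H2-DMb1, chr17:34153074-34153154, plus strand: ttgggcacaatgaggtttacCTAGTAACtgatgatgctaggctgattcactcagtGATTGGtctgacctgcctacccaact
H2-Ob, chr17:34238795-34238872, plus strand: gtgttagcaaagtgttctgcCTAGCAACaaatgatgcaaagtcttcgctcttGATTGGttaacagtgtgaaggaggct
The gap between the boxes was 27 bases in H2-Aa, 26 in H2-Eb1, 27 in H2-DMb1 and 24 in H2-Ob. The X box began at positions -84 to -97 from the RefSeq start, and the Y box at -49 to -62. Neither of the 2 windows of H2-DMa held the pair, and no window of H2-DMb2, H2-Oa or H2-Eb2 did.

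The classical chains came first. H2-Aa (ENSMUSG00000036594, chr17:34282744-34287823 on the minus strand of GRCm38, as GENCODE M21 places it) encodes the alpha chain of I-A. It was at 22.0, 20.9, 26.9 and 22.7 CPM in Ctrl sham 1 to 4, at 18.04, 21.8, 25.0 and 23.3 CPM in KO sham 1 to 4, at 24.9, 22.7, 31.8 and 22.9 CPM in Ctrl TAC 1 to 4, and at 30.8, 31.3, 21.7 and 22.4 CPM in KO TAC 1 to 4. All 4 groups overlapped, and 3 TAC libraries (Ctrl TAC 3, KO TAC 1 and KO TAC 2) stood above every sham library.

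H2-Ab1 (ENSMUSG00000073421, chr17:34257689-34269419, plus strand) encodes the beta chain that pairs with H2-Aa. It was at 19.0, 19.6, 23.1 and 20.7 CPM in Ctrl sham 1 to 4, at 17.9, 20.3, 22.3 and 23.4 CPM in KO sham, at 25.1, 24.6, 31.2 and 22.8 CPM in Ctrl TAC, and at 27.3, 26.9, 18.3 and 20.2 CPM in KO TAC. In Ctrl hearts 3 of the 4 TAC libraries stood above all sham libraries and Ctrl TAC 4 just below the highest of them. KO TAC was split, with libraries 1 and 2 above all KO sham libraries, and library 3 and the library labelled KO TAC 4 within their range.

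H2-Eb1 (ENSMUSG00000060586, chr17:34305867-34316674, plus strand) encodes the beta chain of I-E. It was at 21.3, 22.95, 26.8 and 25.3 CPM in Ctrl sham 1 to 4, at 18.8, 24.0, 25.6 and 24.5 CPM in KO sham, at 27.2, 27.1, 36.5 and 24.4 CPM in Ctrl TAC, and at 30.3, 33.7, 21.7 and 22.4 CPM in KO TAC. The same 3 TAC libraries were highest as for H2-Aa. H2-Ea-ps, the annotated pseudogene of its alpha chain partner, had 37 counts over the 16 libraries, at most 20 in 1 library and 0 in KO TAC.

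**Figure D1:**
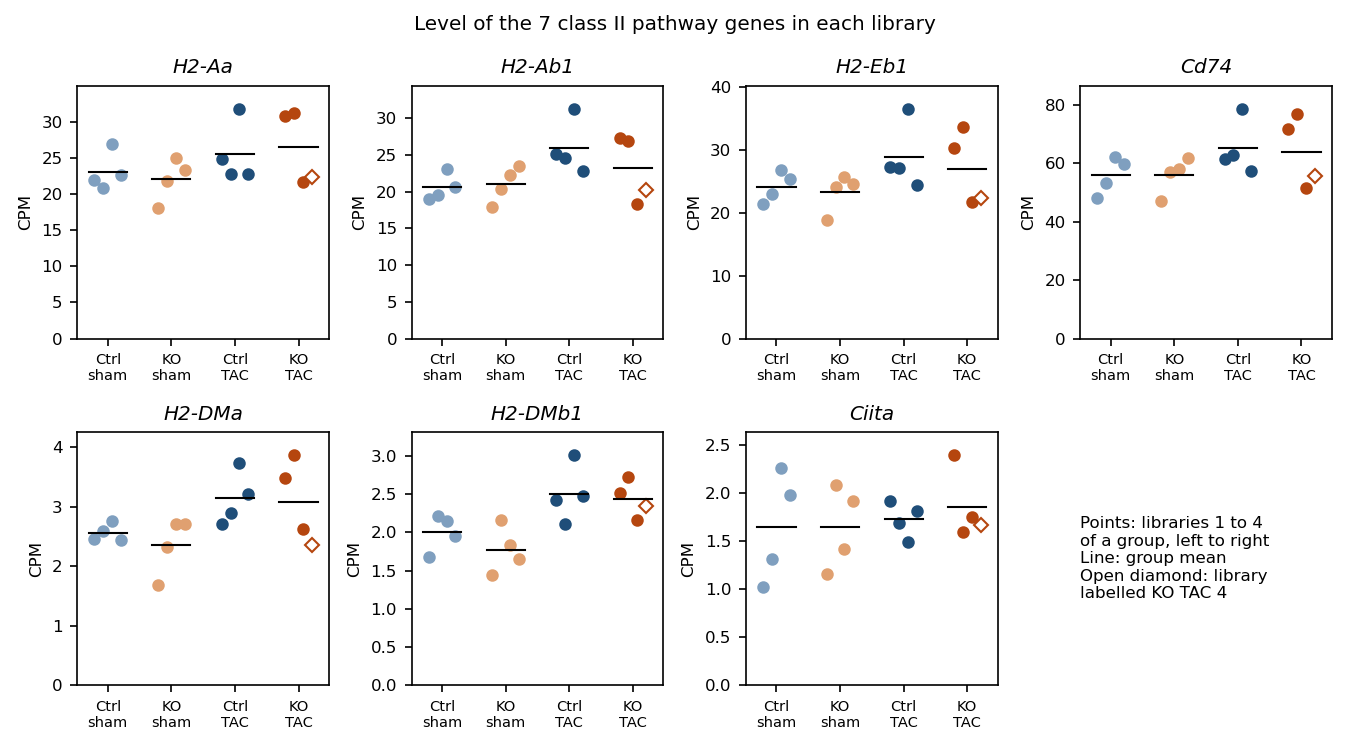
Level of each of the 7 genes in CPM (vertical axes, each from 0) in the 4 libraries of each group, with the group mean as a line and the library labelled KO TAC 4 as an open diamond. In KO TAC, libraries 1 and 2 stand above libraries 3 and 4 for H2-Aa, H2-Ab1, H2-Eb1, Cd74, H2-DMa and H2-DMb1, and no pair of compared groups is fully separated for any gene.

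Cd74 (ENSMUSG00000024610, chr18:60803848-60812652, plus strand), the invariant chain, was the most abundant of the 7 genes. It was at 48.2, 53.1, 62.1 and 59.7 CPM in Ctrl sham 1 to 4, at 47.0, 57.0, 58.1 and 61.6 CPM in KO sham, at 61.3, 62.9, 78.5 and 57.3 CPM in Ctrl TAC, and at 71.5, 76.6, 51.6 and 55.7 CPM in KO TAC. Between 2974 and 5163 counts stood behind each of these values, so counting error was at most 1.75% of a group's mean count, while the libraries of a group differed with a CV of 11.2% to 18.9%. The spread was widest in KO TAC for all 3 classical chains and for Cd74.

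H2-DMa (ENSMUSG00000037649, chr17:34119541-34139101, plus strand) encodes the alpha chain of the exchange factor. It was at 2.46, 2.59, 2.76 and 2.44 CPM in Ctrl sham 1 to 4, at 1.68, 2.33, 2.70 and 2.71 CPM in KO sham, at 2.71, 2.90, 3.74 and 3.22 CPM in Ctrl TAC, and at 3.49, 3.87, 2.62 and 2.36 CPM in KO TAC. In Ctrl hearts the groups overlapped by 1 library, Ctrl TAC 1, which lay under Ctrl sham 3. The gene shares 360 exonic bases with Brd2 on the opposite strand, and whether counting used the strand is not given in the sources used here. Brd2 itself was not called after TAC in either genotype (log2 fold change -0.095 in Ctrl with an adjusted p of 0.404, and 0.018 in KO with an adjusted p of 0.885, edgeR's quasi-likelihood test with Benjamini-Hochberg adjustment).

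H2-DMb1 (ENSMUSG00000079547, chr17:34153072-34160230, plus strand) encodes the beta chain of H2-DM. It was at 1.68, 2.22, 2.15 and 1.96 CPM in Ctrl sham 1 to 4, at 1.44, 2.17, 1.84 and 1.65 CPM in KO sham, at 2.43, 2.11, 3.01 and 2.48 CPM in Ctrl TAC, and at 2.52, 2.73, 2.16 and 2.35 CPM in KO TAC. The KO groups were apart but for 1 pair of libraries: KO TAC 3 (2.163 CPM) lay just under KO sham 2 (2.169 CPM). Of the 50-base words of its transcripts 22.7% occur also in H2-DMb2, its neighbouring copy, so reads may be divided between them.

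Ciita (ENSMUSG00000022504, chr16:10480059-10528418, plus strand), the regulator of the other 6 genes, was at 1.02, 1.31, 2.27 and 1.98 CPM in Ctrl sham 1 to 4, at 1.15, 2.08, 1.41 and 1.92 CPM in KO sham, at 1.92, 1.69, 1.49 and 1.81 CPM in Ctrl TAC, and at 2.39, 1.59, 1.75 and 1.66 CPM in KO TAC. It rested on 73 to 161 counts a library. Its order of libraries was its own: KO TAC 1 was highest and Ctrl sham 1 lowest, and Ctrl TAC 3, the library with most H2-Aa, H2-Ab1, H2-Eb1, H2-DMb1 and Cd74, was the lowest Ctrl TAC library for Ciita. The sham libraries were more spread (CV 35.1% in Ctrl and 26.3% in KO) than those of Ctrl TAC (10.6%) or KO TAC (19.9%). It shares 329 exonic bases with Dexi on the opposite strand, and Dexi rose after TAC (log2 fold change 0.45, SE 0.067, adjusted p = 0.000117 in Ctrl and 0.30, SE 0.067, adjusted p = 0.00218 in KO, edgeR).

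Levels of different genes were compared per kilobase of annotated exon. The mean over 16 libraries was 35.8 CPM per kilobase for Cd74, 13.3 for H2-Eb1, 8.83 for H2-Ab1, 6.40 for H2-Aa, 1.30 for H2-DMb1, 0.808 for H2-DMa and 0.180 for Ciita. This order held within every one of the 16 libraries, although the ranges over libraries overlapped between H2-Eb1 and H2-Ab1, between H2-Ab1 and H2-Aa, and between H2-DMb1 and H2-DMa. Within a library Cd74 was 2.49 to 2.91 times H2-Eb1, its nearest neighbour, and H2-DMa was 3.09 to 6.94 times Ciita. The 2 chains of I-A were not equal on this scale, with H2-Ab1 at 1.24 to 1.60 times H2-Aa. This ratio depends on the annotated exon length (3798 bases for H2-Aa and 2568 for H2-Ab1). The place of H2-DMb1 above H2-DMa rests on length too (1681 and 3448 bases). In CPM H2-DMa had the higher median (2.705 against 2.166). The same lengths divide every library, so the order within libraries is no separate check of them.

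Across libraries the classical chains and Cd74 moved together. As a description over the 16 libraries, which share depth scaling and tissue makeup, Pearson's r of log2 CPM was 0.891 between H2-Aa and H2-Ab1 and 0.976 between H2-Eb1 and Cd74, the lowest and the highest of the 6 pairs of these 4 genes. Pairs of an H2-DM gene with one of these 4 or with each other lay between 0.685 and 0.881. Pairs with Ciita were lowest, with 0.333 to 0.482. Counting error, which lowers r, was 8.85% to 10.2% of a group's mean count for Ciita and 6.9% to 9.81% for the H2-DM genes. For Cd74 it was 1.51% to 1.75%. Its part in the lower values of r was not tested.

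The first comparison asked what pressure overload did to the pathway in Ctrl hearts. All 7 genes had a higher mean after TAC, by a median log2 fold change of 0.257 against 0.00426 over all genes tested, and none passed the test (0 of 7 called, where 10.4% of all tested genes were called higher and 9.6% lower, edgeR's quasi-likelihood test, adjusted p under 0.05). H2-Ab1 came nearest, with 20.6 ± 1.82 CPM after sham surgery and 25.9 ± 3.67 CPM after TAC (SD, n = 4), a log2 fold change of 0.33 (SE 0.13, 95% interval 0.059 to 0.61, adjusted p = 0.0842). H2-DMb1 followed with 0.33 (SE 0.15, adjusted p = 0.139), and these were the 2 genes with an unadjusted p under 0.05. The interval of Cd74 was -0.061 to 0.50 and that of H2-Aa -0.16 to 0.45. Ciita was at 0.080, and its estimate turned to -0.0983 without Ctrl sham 1. In 2 alternatives, the DESeq2 Wald test (adjusted p = 0.0490) and a fit to the 8 Ctrl libraries alone (adjusted p = 0.0391), H2-Ab1 was called. Without Ctrl TAC 2 no gene was called, and H2-Ab1 was at 0.36 (adjusted p = 0.101).

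In KO hearts the same comparison called 1 of the 7 genes, H2-DMb1, where 17.8% of all tested genes were called higher and 16.5% lower. It rose from 1.78 ± 0.310 CPM in KO sham to 2.44 ± 0.241 CPM in KO TAC (SD, n = 4), 1.38-fold (log2 0.46, SE 0.15, 95% interval 0.145 to 0.775, edgeR adjusted p = 0.0235). H2-DMa was at 0.39 (SE 0.17, adjusted p = 0.0881), H2-Aa at 0.27 (SE 0.14, adjusted p = 0.169) and H2-Ab1, the gene that came nearest in Ctrl hearts, at 0.14 (SE 0.13, adjusted p = 0.436). The median over the 7 genes was 0.217, against -0.0039 over all genes. Without the library labelled KO TAC 4 both H2-DM genes were called, H2-DMa at 0.50 (SE 0.17, edgeR adjusted p = 0.0348) and H2-DMb1 at 0.48 (SE 0.17, edgeR adjusted p = 0.0367). The call of H2-DMb1 was lost when KO sham 1 (adjusted p = 0.0852), KO sham 4 (0.0647), KO TAC 1 (0.0521) or KO TAC 2 (0.0701) was left out, and with a term for the animal numbers that start with 33 (0.0915), which 3 KO sham mice and 1 Ctrl sham mouse carry.

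**Figure D2:**
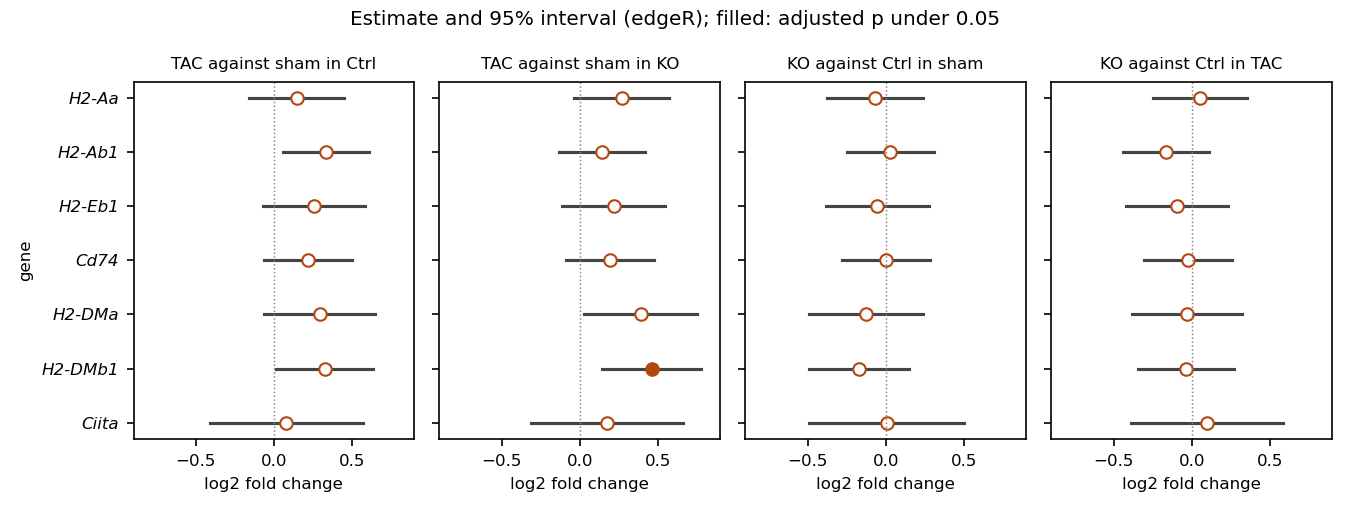
Log2 fold change of each gene (horizontal axis, with its 95% interval) in 4 comparisons, from the edgeR fit to all 16 libraries, with filled points for adjusted p under 0.05. All 7 estimates lie above 0 after TAC in both genotypes, 1 of them is filled (H2-DMb1 in KO), and the estimates of KO against Ctrl lie on both sides of 0, within 0.173 of it.

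Averaged over both genotypes, TAC hearts had more RNA of 3 of the 7 genes by the test, where 21.3% of all tested genes were called higher and 20.2% lower. H2-DMb1 rose by a log2 fold change of 0.39 (SE 0.11, edgeR adjusted p = 0.00585), H2-DMa by 0.34 (SE 0.12, edgeR adjusted p = 0.0297) and H2-Ab1 by 0.24 (SE 0.092, edgeR adjusted p = 0.0478). H2-Eb1 (0.24, adjusted p = 0.0961), Cd74 (0.21, adjusted p = 0.0929) and H2-Aa (0.21, adjusted p = 0.119) did not pass, and Ciita was at 0.13 with a 95% interval of -0.22 to 0.474 (adjusted p = 0.578). H2-DMb1 was called in all 23 alternatives, H2-DMa in 16 and H2-Ab1 in 9. Left out singly, Ctrl sham 1, KO sham 1, Ctrl TAC 3, KO TAC 1 and KO TAC 2 each brought the count from 3 to 1, H2-DMb1. Leaving out KO TAC 3 raised it to 5, with H2-Eb1 and Cd74 added. Without both Ctrl TAC 2 and the library labelled KO TAC 4 the count was 3 and the genes were the same.

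The comparison of genotypes asked whether loss of Cardinal changed the pathway. In sham hearts edgeR called 0 of the 7 genes and 0 of all tested genes (0%). None of the 7 had an unadjusted p under 0.05, and their estimates lay between -0.17 (H2-DMb1) and 0.029 (H2-Ab1). Group means were close, with Cd74 at 55.8 ± 6.34 CPM in Ctrl and 55.9 ± 6.25 CPM in KO hearts (SD, n = 4), a log2 difference whose 95% interval ran from -0.279 to 0.287. At an unadjusted p under 0.05, edgeR held 479 of all tested genes. By the DESeq2 Wald test 4 of all genes and again 0 of the 7 were called. In the edgeR fit Gm12295, the deleted gene, was itself not called in sham hearts (log2 -2.92, SE 0.82), though its groups did not overlap. That fit takes the spread of each gene from all 16 libraries, so for Gm12295 it includes the library labelled KO TAC 4. Without that library edgeR called 1 of all tested genes in sham hearts, and which gene it was is not given here. After TAC Gm12295 was at -1.57 (edgeR adjusted p = 0.263), with the library labelled KO TAC 4 included. A gene without a call may therefore still differ between genotypes.

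In TAC hearts 0 of 7 genes were called between KO and Ctrl, where 2.68% of all tested genes were, and again none had an unadjusted p under 0.05 (edgeR), while DESeq2 called none as well. The largest difference was that of H2-Ab1, which was at 25.9 ± 3.67 CPM in Ctrl TAC and 23.2 ± 4.63 CPM in KO TAC (log2 -0.16, SE 0.13, 95% interval -0.438 to 0.112, edgeR adjusted p = 0.547). Cd74 differed by -0.026 with an interval of -0.308 to 0.256, and Ciita by 0.099 with the widest interval, -0.387 to 0.585. For every one of the 7 genes the interval reached at least 0.308 from 0 on one side, so a difference of that size lay within the error. Without the library labelled KO TAC 4 none of the 7 was called, and the difference of Cd74 was 0.0345. Without Ctrl TAC 2 none of the 7 was called, and the count over all genes went from 489 to 63. Of the TAC mice, 3 of 4 Ctrl and 1 of 4 KO carry animal numbers that start with 25, so this number series and genotype partly run together. With a term for it none of the 7 was called, and the share of all tested genes called went from 2.68% to 0.0657%. The interaction of genotype and surgery called 0 of the 7 genes, with 0 at an unadjusted p under 0.05 and 0 by DESeq2, where 0.0109% of all tested genes were called. Its estimates ran from -0.19 for H2-Ab1 (SE 0.18, edgeR adjusted p = 0.752) to 0.13 for H2-DMb1 (SE 0.21, edgeR adjusted p = 0.867). The comparisons share libraries, so their values stand side by side only.

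The counts over the other gene lists stand against the shares of all tested genes called after TAC, which were 10.4% higher and 9.6% lower in Ctrl hearts and 17.8% higher and 16.5% lower in KO hearts. Among other class II genes, H2-Ob, which with H2-Oa forms the H2-DO inhibitor of H2-DM and is best known from B cells, rose after TAC in both genotypes, from 0.549 ± 0.160 to 0.936 ± 0.334 CPM in Ctrl (log2 0.76, SE 0.26, edgeR adjusted p = 0.0454) and from 0.626 ± 0.0559 to 1.11 ± 0.232 CPM in KO (log2 0.83, SE 0.26, edgeR adjusted p = 0.0171; SD, n = 4). In Ctrl its adjusted p was 0.0529 without the library labelled KO TAC 4, which enters the shared estimate of the spread. H2-DMb2, the copy beside H2-DMb1, rose in KO hearts (log2 0.89, SE 0.33, edgeR adjusted p = 0.0432) on 9 to 23 counts a library after sham surgery and 32 to 44 after TAC, and was at 0.22 in Ctrl hearts (adjusted p = 0.687). By DESeq2 its call in KO was lost (adjusted p = 0.0510). H2-Oa, H2-Eb2 and H2-Ea-ps did not pass the filter. H2-Oa and H2-Eb2 had 45 counts each over the 16 libraries and were detected in 8 of them each.

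Of the factors at class II promoters, none of the 7 listed genes (Rfx5, Rfxank, Rfxap, Nfya, Nfyb, Nfyc, Creb1) was called after TAC in Ctrl hearts (0 by DESeq2 too). In KO hearts Rfxank, a subunit of the RFX complex that binds the X box, rose by a log2 fold change of 0.30 (edgeR adjusted p = 0.0065), and Rfxap, another subunit, fell by 0.25 on the log2 scale (edgeR adjusted p = 0.00566), while Rfx5, the other subunit, was at 0.0096 (adjusted p = 0.969). Without the library labelled KO TAC 4 Nfyc, a subunit of the Y box factor NF-Y, was called lower in KO as well (log2 -0.221, edgeR adjusted p = 0.0362). Of the interferon gamma axis, Ifngr1, which encodes the ligand-binding receptor chain, and Irf8, a transcription factor of myeloid cells, rose in both genotypes. Jak1, the kinase bound to that receptor chain, fell in both. Ifngr1 gained 0.40 in Ctrl and 0.49 in KO, and Jak1 fell by 0.33 and by 0.34 on the log2 scale. Irf1, a transcription factor induced by interferon, was not called in either genotype (-0.083 and -0.12). Ifng itself had 7 counts over all 16 libraries, none of them in a TAC library.

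Of 9 genes that prepare peptides in endosomes, 6 rose after TAC in KO hearts and 1 in Ctrl hearts (2 by DESeq2 and 2 without Ctrl TAC 2). The interaction called none of the 9, nor any other listed gene. Ctsz, a cathepsin, rose in both (log2 0.58 in Ctrl and 0.84 in KO). Ctss, the cathepsin that performs the last trimming of the invariant chain, was at 0.38 in Ctrl (SE 0.14, edgeR adjusted p = 0.0577) and rose by 0.89 in KO (SE 0.14, edgeR adjusted p = 8.82e-05). Ifi30, the lysosomal thiol reductase, Ctsb, Ctsd and Cst3, a cathepsin inhibitor, rose in KO by log2 values between 0.16 and 0.43. Ctsl, Ctsh and Lgmn were called in neither genotype. Of the genes that move class II to and from the surface, Cd83, which opposes the ubiquitin ligase MARCH1, rose in KO (log2 0.75, edgeR adjusted p = 0.0450), and March8 fell by 0.14 on the log2 scale in KO.

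**Figure D3:**
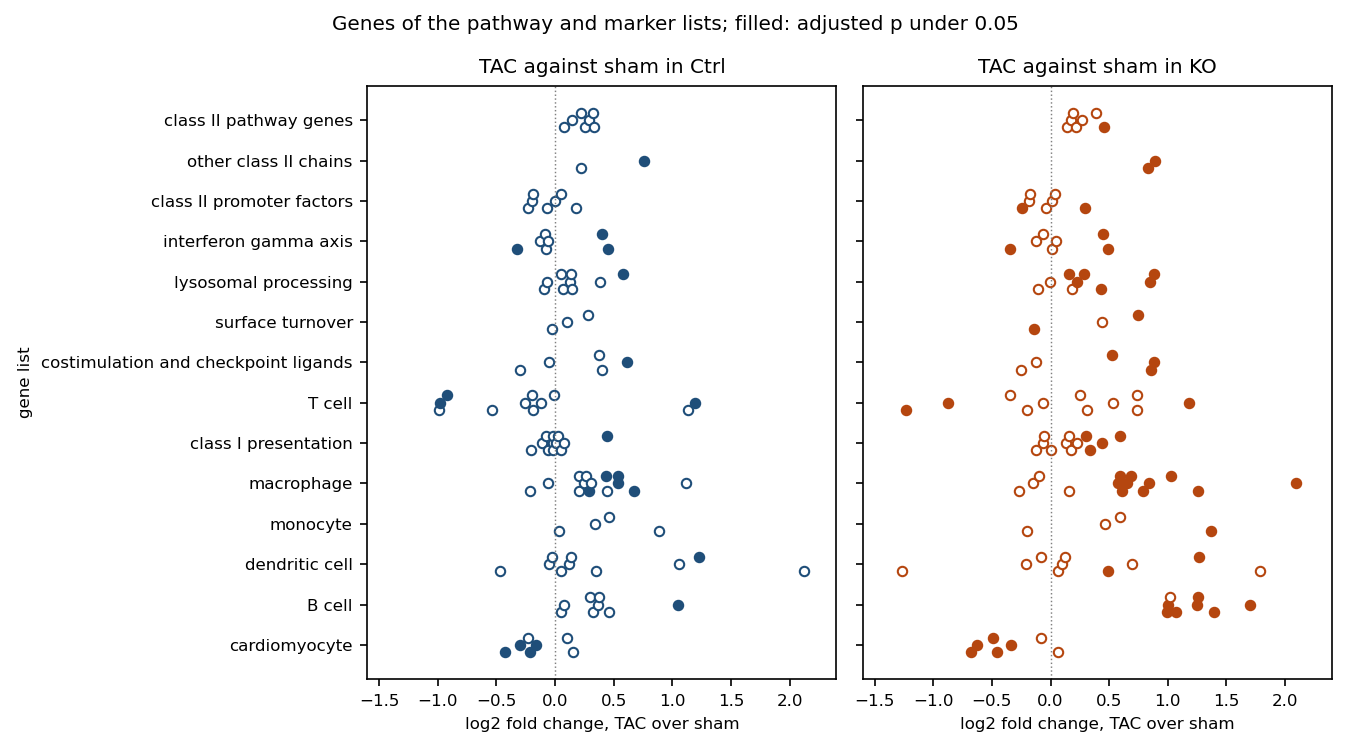
Log2 fold change of TAC over sham (horizontal axis) for each tested gene of 14 lists (vertical axis), in Ctrl hearts on the left and KO hearts on the right, with filled points for edgeR adjusted p under 0.05. The 7 class II pathway genes lie between 0.080 and 0.46. In KO hearts the 8 B cell genes, called or not, lie to their right (0.99 to 1.7). The macrophage genes there run from -0.273 to 2.09, on both sides of them.

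Of 5 tested costimulatory and checkpoint genes of antigen-presenting cells, 1 rose after TAC in Ctrl hearts and 3 in KO hearts. Cd80 rose by 0.89 and Cd86 by 0.86 on the log2 scale in KO (edgeR adjusted p = 0.00176 and 0.0066), and were at 0.40 and 0.38 in Ctrl with no call. Cd40 rose in both genotypes (0.61 and 0.53). Icosl and Cd274 were called in neither, and Pdcd1lg2 had 22 counts in all. Of 12 class I presentation genes, 1 rose in Ctrl hearts, Psmb10, an immunoproteasome subunit (0.44), and 4 in KO hearts, Psmb10 (0.60), B2m, the class I light chain (0.44), Tap1, a peptide transporter subunit (0.34), and H2-T23, a nonclassical class I heavy chain (0.30). Their median over the list was -0.016 in Ctrl and 0.167 in KO. The count in Ctrl was near the share of all genes called higher.

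RNA of some markers of the cells that usually carry class II also rose after TAC, to an extent that differed between the lists. In bulk tissue more cells of a type and more RNA per cell cannot be told apart. Of 14 macrophage markers 5 rose after TAC in Ctrl hearts and 10 in KO hearts, and none fell. Without Ctrl TAC 2 the count in Ctrl was 4, and without the library labelled KO TAC 4 that in KO was 10. Csf1r, the receptor of the macrophage growth factor, went from 33.99 ± 4.64 to 41.6 ± 1.94 CPM in Ctrl (log2 0.29, edgeR adjusted p = 0.0190) and from 30.2 ± 1.97 to 45.5 ± 3.91 CPM in KO (log2 0.59, edgeR adjusted p = 3.02e-05; SD, n = 4), and the complement genes C1qa, C1qb and C1qc rose in both. Cd163, a scavenger receptor of resident macrophages, was the 1 macrophage marker called when the genotypes were compared after TAC. It was lower in KO hearts (log2 -0.61, SE 0.14, edgeR adjusted p = 0.0347). Without Ctrl TAC 2 this call was lost (log2 -0.523, edgeR adjusted p = 0.121). Of the other lists, edgeR called 1 fibroblast gene higher in KO in this comparison (Col1a2) and 2 cardiomyocyte genes lower (Myh6 and Ryr2). These calls were lost without Ctrl TAC 2 too. Of the 14 markers 10 had a higher estimate in KO than in Ctrl hearts after TAC (median log2 0.133), and DESeq2 also called Adgre1, which encodes the macrophage antigen F4/80, higher (log2 0.468, adjusted p = 0.0455). The summed level of the 14 markers was 191 to 235 CPM in Ctrl and 180 to 210 CPM in KO hearts after sham surgery, and 260 to 283 CPM in Ctrl and 244 to 321 CPM in KO hearts after TAC, so sham and TAC libraries did not overlap. Their part in the values of the 7 genes was not tested.

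The summed CPM of H2-Aa, H2-Ab1, H2-Eb1 and Cd74 overlapped where the macrophage sum did not. After sham surgery it was 110.5 to 139 CPM in Ctrl and 102 to 133 CPM in KO hearts, and after TAC 127 to 178 CPM in Ctrl and 113 to 168.5 CPM in KO hearts. As a log2 ratio to the macrophage sum it averaged -0.77 in Ctrl and -0.71 in KO hearts after sham surgery, and -0.90 in Ctrl and -1.03 in KO hearts after TAC. Every KO TAC library lay below the KO sham mean, and the ranges of KO sham (-0.83 to -0.60) and KO TAC (-1.28 to -0.80) overlapped. The TAC minus sham difference of this ratio was -0.13 in Ctrl (-0.205 without Ctrl TAC 3 and -0.0656 without Ctrl TAC 4) and -0.32 in KO (-0.236 without the library labelled KO TAC 4). Against Csf1r alone it was -0.075 in Ctrl and -0.40 in KO. These ratios are descriptions over markers whose RNA per cell may itself differ between groups.

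**Figure D4:**
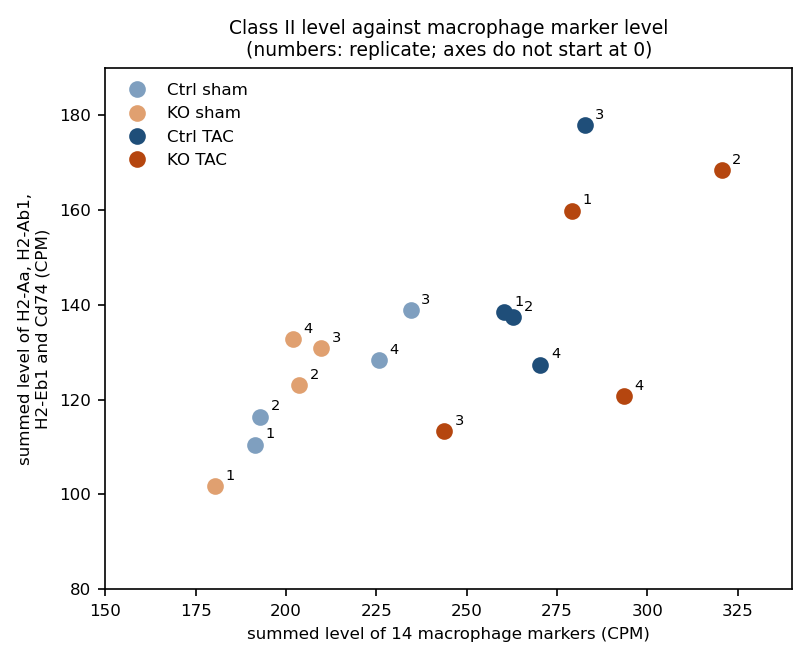
Summed level of H2-Aa, H2-Ab1, H2-Eb1 and Cd74 (vertical axis, CPM) against the summed level of 14 macrophage markers (horizontal axis, CPM) in the 16 libraries, coloured by group and numbered by replicate. TAC libraries lie to the right of all sham libraries, from 244 CPM up, while their class II sums, 113 to 178 CPM, reach from within the sham range to above it.

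Markers of other class II expressing cells were then summed. B cell markers summed to 3.07 to 4.19 CPM in Ctrl and 3.18 to 3.62 CPM in KO hearts after sham surgery, and to 4.78 to 7.05 CPM in Ctrl and 6.73 to 10.1 CPM in KO hearts after TAC. Blk, a kinase, made up most of the sum after TAC, with a mean of 3.43 CPM in Ctrl and 4.815 CPM in KO. Of 8 genes 1, Blk, rose in Ctrl hearts and 7 in KO hearts. Without the library labelled KO TAC 4 the count in KO was again 7, with Ms4a1 lost (edgeR adjusted p = 0.0531) and Pax5 gained (0.0484). Dendritic cell markers summed to 33.7 to 56.9 CPM over all libraries, most of it Zbtb46 and Fscn1, and of the defining markers Clec9a was at 2.39 to 3.93 CPM while Flt3, Xcr1 and Cd209a were at most 1.05 CPM in every library. Of these 10 genes 1 rose after TAC in Ctrl hearts and 2 in KO hearts (1 without the library labelled KO TAC 4, Fscn1 being lost), with medians of 0.13 and 0.111. Their lowest estimate in KO was that of Cd209a, -1.26 (adjusted p = 0.125). Xcr1, of cross-presenting dendritic cells, rose in both genotypes (log2 1.23 and 1.27), in Ctrl not without Ctrl TAC 2 (edgeR adjusted p = 0.0684). Of 11 tested T cell genes 1 was called higher and 2 lower in each genotype, with median log2 values of -0.198 in Ctrl and 0.253 in KO. Lag3, an inhibitory receptor that binds class II, rose in both (1.195 and 1.18), and Cd28 and Ctla4 fell in both. Cd3d, Cd3e and Cd3g were at or under 0.385 CPM in every library. Cd28 averaged 4.80 CPM in Ctrl sham and 2.53 CPM in Ctrl TAC, well above them, and which cells it came from was not tested. Cardiomyocyte genes fell, 4 of 7 in Ctrl and 5 of 7 in KO, and their sum averaged 52020 CPM in Ctrl and 51470 CPM in KO hearts after sham surgery and 46260 CPM in Ctrl and 38880 CPM in KO hearts after TAC. The part of this shift in the other values was not tested. Monocyte markers (1 of 4 tested genes called higher in KO, Fcgr4, and none in Ctrl, where without Ctrl TAC 2 Fcgr4 was called too, log2 1.11, edgeR adjusted p = 0.0210), neutrophil markers (1 of 3 called higher in KO, S100a9, and none in Ctrl), endothelial markers (0 of 6 called in both) and fibroblast markers (3 of 6 called higher in Ctrl, 5 of 6 without Ctrl TAC 2, and 6 of 6 in KO) completed the lists.

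Ciita was compared with the other 6 genes within the 8 sham and within the 8 TAC libraries, so that differences between sham and TAC did not enter r. In sham hearts log2 CPM of Ciita went with that of Cd74 (Pearson's r = 0.891, exact permutation p = 0.00305, adjusted over the 12 relations 0.0366, and Spearman's rho = 0.810, exact permutation p = 0.0218, adjusted 0.221, so the rank measure missed the threshold). Leaving out the 2 libraries farthest from the median of Ciita, Ctrl sham 1 and KO sham 1, gave r = 0.742 for Cd74 and between -0.201 and 0.516 for the other genes. H2-Eb1 had r = 0.767 (adjusted exact permutation p = 0.111), and the other 4 genes had r between 0.416 and 0.709 with adjusted values of 0.241 and above. In TAC hearts the 6 values of r lay between -0.232 and 0.0465, with adjusted exact permutation values of 0.965. The difference between sham and TAC was not tested, and Ciita spanned 1.02 to 2.27 CPM in sham and 1.49 to 2.39 CPM in TAC libraries. Its CV in Ctrl TAC was 10.6%, where counting error alone was 9.43%, and in KO TAC 19.9% beside 8.85%. In sham hearts its CV was 35.1% beside 10.1% in Ctrl and 26.3% beside 10.2% in KO. Less of the spread in TAC hearts lay beyond counting error, so an r near 0 there cannot show that the relation was absent.

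**Figure D5:**
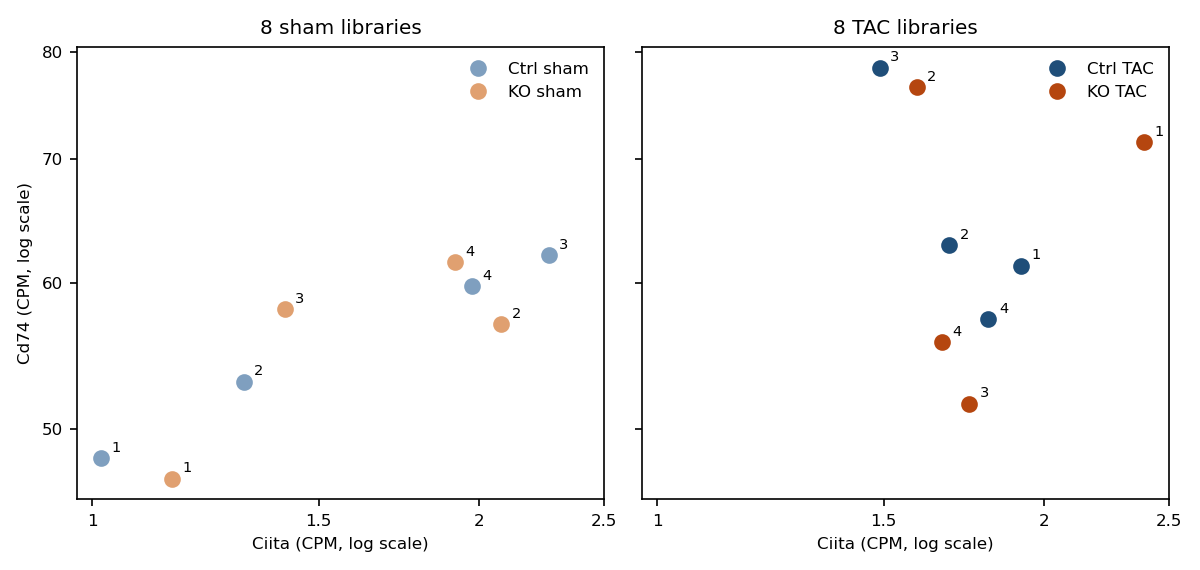
Cd74 against Ciita (CPM, both axes logarithmic) in the 8 sham libraries on the left and the 8 TAC libraries on the right, numbered by replicate. In sham hearts Cd74 is lowest (47.0 and 48.2 CPM) where Ciita is lowest (1.15 and 1.02 CPM). In TAC hearts the library with most Cd74, Ctrl TAC 3 at 78.5 CPM, has the least Ciita, 1.49 CPM on 98 counts. Much of the spread of Ciita in Ctrl TAC is of the size of counting error.

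The genes outside the pathway whose log2 CPM followed the mean of standardised H2-Aa, H2-Ab1, H2-Eb1 and Cd74 most closely over the 16 libraries were Clec4a1 (Pearson's r = 0.863), Maf (0.828), 5330438D12Rik (0.823), Tbxas1 (0.803), Gmfg (0.792), Mctp1 (0.787), Clta (0.774), Unc93b1 (0.770), Cd86 (0.763) and Slc11a1 (0.759). Clec4a1 encodes a C-type lectin receptor of myeloid cells, Maf a transcription factor of macrophages among other cells, Tbxas1 thromboxane synthase, Unc93b1 the chaperone of endosomal Toll-like receptors, Cd86 a costimulatory ligand and Slc11a1 a metal transporter of phagosomes. With the group means removed the 10 values of r were 0.712 to 0.843. They rest on the same 16 libraries by which the genes were picked, so they are no separate check. These values pick the highest of 18275 genes and are a description.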

How the data were processed

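Poly(A)-selected RNA of the heart apex was sequenced as paired reads of 150 bases. The values used were raw counts, deposited by the authors as whole numbers for each Ensembl gene with no normalization. Per the submitters' processing notes the tools included cutadapt 2.3, FastQC, HISAT2 2.1.0 and edgeR 3.26.1, with build GRCm38. The counting program, annotation and strand setting are not given in the sources used here. GENCODE M21 held 99.5% of the identifiers.

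The 7 genes and the gene lists were chosen with earlier results of these data known. Genes were filtered (filterByExpr) and scaled (TMM), and 1 quasi-likelihood model with 4 group means was fitted to 16 libraries in edgeR 4.0.16 (R 4.3.3). It was checked on simulated data with changes between TAC and sham that were larger than those of the 7 genes. That check does not gauge effects of their size, nor effects of genotype. P-values were adjusted by Benjamini and Hochberg over 18275 genes, and genes under 0.05 were called. SE was the log2 fold change divided by the root of F, and intervals used the t distribution of the fit. Ciita was related to the other genes on log2 CPM with a prior count of 2 by two-sided exact permutation. Genes named outside the 7 were those of the lists and the 10 most alike by r. Alternatives were RLE factors, DESeq2 1.42.0, 2 other filters, 2 animal-number terms, the omission of libraries and fits to 8 libraries. Ctrl TAC 2 or KO TAC 4 was left out of the list counts, both were left out of the class II ratio, and Csf1r replaced the macrophage list, all chosen after the data were seen. Replicate numbers follow sample order and only name libraries.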

Additional observations from a re-analysis of the deposited data

How the results depend on the processing

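The estimates after TAC stayed above 0 for all 7 genes in every alternative, except Ciita in Ctrl hearts, which ran from -0.0983 to 0.278 when 1 library at a time was left out. After TAC in Ctrl hearts the count called was 0, and it was 1 (H2-Ab1) by DESeq2 and in the fit to 8 libraries. In KO hearts it was 1, it ran from 0 to 2 over single omissions, it was 2 without both Ctrl TAC 2 and KO TAC 4, and it was 0 with a term for animal numbers starting with 33. Averaged over genotypes it was 3, it ran from 1 to 5 over single omissions, and it was 1 with a term for animal numbers starting with 25 or with 33. No alternative called any of the 7 genes between genotypes or in the interaction. Some of these uncalled estimates near 0 changed sign.
Between genotypes in sham hearts, Cd74 was at -0.00119 with no filter and Ciita at -0.00863 with the 33 term. Between genotypes in TAC hearts, H2-Aa was at -0.0197 and Ciita at -0.00218 with the 25 term, and H2-DMa at 0.043 and Cd74 at 0.0184 without both libraries. In the interaction, Ciita was at -0.0072 with the 25 term, and H2-Eb1 at 0.0132 and Cd74 at 0.0149 without both libraries.
Over single omissions the genotype difference in sham hearts ran from -0.136 to 0.0154 for H2-Aa, -0.0282 to 0.0986 for H2-Ab1, -0.108 to 0.0355 for H2-Eb1, -0.201 to 0.00779 for H2-DMa, -0.0602 to 0.0781 for Cd74 and -0.172 to 0.203 for Ciita. In TAC hearts it ran from -0.0343 to 0.178 for H2-Aa, -0.216 to 0.0423 for H2-Eb1, -0.156 to 0.0807 for H2-DMa, -0.114 to 0.0632 for H2-DMb1, -0.125 to 0.0786 for Cd74 and -0.0485 to 0.163 for Ciita. The interaction ran from -0.162 to 0.0971 for H2-Eb1, -0.0382 to 0.207 for H2-DMa, -0.128 to 0.0759 for Cd74 and -0.104 to 0.269 for Ciita. The causes of these changes were not tested.
No paired analysis was possible because the replicate numbers follow sample order and only name the libraries. The number series 25 and 33 are not stated to be batches. Only TAC animals carry the first and only sham animals the second, so these terms partly stand for surgery, and both also partly for genotype. Counts of 73 to 161 limit Ciita.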
